A study of Mus musculus with 2 samples.

Results

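Noct piRNAs were taken as the deposited small RNA sequences of 16 to 36 nt that matched, without mismatch and on either strand, an annotated transcript of mouse Noct and of no other gene. Of 984096 distinct sequences of this length, 679 did so, and they were read 1185 times in WT and 602 times in the library labelled KO. At the piRNA length of 24 to 33 nt there were 553 sequences, of 104304 that were specific to 1 gene, with 1040 and 508 reads. The locus was chosen by the abundance of its 24-33-nt RNAs in both libraries and by their first-position uracil (U), so both measures are given as a description.

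The libraries came from whole testes of C57BL/6 fetuses at E16.5, with 20 testes pooled for WT and 20 for Hsp90α KO, mice without the alpha form of the chaperone HSP90. Each genotype has 1 library, so no difference between genotypes has a replicate check, and every interval covers only the counting of reads, which carry no molecular identifiers and are not independent molecules. In pooled whole testes, fewer germ cells and less RNA per cell cannot be told apart. Reads numbered 6409305 for WT and 5589326 for the library labelled KO, and values were normalized to their 2523084 and 2561491 miRNA reads, so that 3 reads correspond to 1.19 and 1.17 per 1000000 miRNA reads.

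Noct encodes nocturnin, a member of the CCR4-type nuclease family known for its circadian expression. piRNAs are small RNAs bound by PIWI proteins, and in fetal male germ cells MILI and MIWI2 use them against retrotransposons. PIWI proteins cut a target across from position 10 of the guiding piRNA. The cut RNA can become a piRNA from the other strand, which leaves partners whose 5′ ends overlap by 10 nt, one beginning with U and the other carrying adenine (A) at position 10. This exchange is called the ping-pong cycle.

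The label Noct held only in part, because the reads lay almost wholly outside the sequence that the usual Noct mRNA keeps. Noct lies at chr3:51224447-51251644 on the plus strand (GRCm38) and has 4 annotated transcripts. Noct-202, the longest at 9797 nt, begins with an exon at chr3:51240206-51248074, which holds its 5′ UTR and the start of its coding sequence. Nearly all of that exon is intron 1 of the main transcript Noct-201, at chr3:51225288-51247804. Of the 24-33-nt reads, 1037 of 1040 in WT and 505 of 508 in the library labelled KO lay inside this intron. Only 3 reads of each library matched Noct-201, and 0 crossed an exon junction. The coding sequence at 7608 to 8702 of Noct-202 held 0 WT reads and 1 read labelled KO, as did the 3′ UTR.

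Within the first exon the reads fell in a segment with a particular arrangement. Positions 1 to 181 and 4916 to 5096 of Noct-202 are identical direct repeats of 181 nt, at chr3:51240206-51240386 and chr3:51245121-51245301. The left copy begins at the first base of the transcript and nothing upstream was searched, so 181 nt is a least length. Between the repeats runs a sense open reading frame of 3213 nt, while the longest on the antisense strand is 387 nt. Open reading frame here means a stretch free of stop codons in its frame, and no start codon was required. Long direct repeats around a long open reading frame are the layout of an LTR retrotransposon. No repeat annotation was used here, and the family is not named. The segment held 97.3% of the Noct-specific reads of WT and 97.0% of those of the library labelled KO. The rest of the 5′ UTR, at 5097 to 7607, held 25 WT reads and 12 reads labelled KO, of which 25 and 11 were sense.

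For each of the 4 most used 5′ ends of either strand, the most read sequence is given, numbered by its rank among the sequences of its strand. Positions count from the first base of Noct-202, the letters are those of the deposited DNA sequences with T for U, and capitals mark the first 10 bases, over which ping-pong partners pair.
Noct sense 1, 5′ end at 787: TAGTAGCTCTgaagcagatgaagaatc
Noct sense 2, 5′ end at 865: TAATCGGTCAagaaaaaagccaaaagcggc
Noct sense 6, 5′ end at 913: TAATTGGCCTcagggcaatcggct
Noct sense 4, 5′ end at 546: TTCTAGAGGAaattcaggacagtctatc
Noct antisense 1, 5′ end at 874: TGACCGATTAgctggctggtaatgggctgc
Noct antisense 7, 5′ end at 579: ACTTCTGATAgactgtcctgaatttcctct
Noct antisense 5, 5′ end at 574: TGATAGACTGtcctgaatttcctctaga
Noct antisense 8, 5′ end at 581: TTACTTCTGAtagactgtcctgaatttcct
Sense 1 lies at chr3:51240992-51241018 and had 36 reads in WT and 19 in the library labelled KO. Sense 2 (chr3:51241070-51241099) had 26 and 8 reads, and antisense 1 (chr3:51241050-51241079, minus strand) had 41 and 20. The capitals of sense 2 and antisense 1 are reverse complements of each other, each starting with T and ending with A. Sense 6 (chr3:51241118-51241141) had 13 and 3 reads and sense 4 (chr3:51240751-51240778) had 9 and 8. Antisense 7 (chr3:51240755-51240784) had 18 and 4 reads, antisense 5 (chr3:51240752-51240779) 20 and 7, and antisense 8 (chr3:51240757-51240786) 15 and 6. Each of these 8 was read more often in WT, as was the locus as a whole, though sense 4 with 9 and 8 reads hardly differed. Antisense 7 is the only one of the 8 that does not begin with T. Among the 8 most read sequences of each strand, 16 in all, those read more often in the library labelled KO were sense 7, which starts at 510 and had 4 and 9 reads, and antisense 4, a 27-nt form of antisense 1 with 14 and 16 reads.

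Noct RNAs came from both strands in nearly equal numbers. WT held 521 sense and 519 antisense reads of 24 to 33 nt, and the library labelled KO held 243 and 265. The sense share was thus 50.1% in WT (95% Wilson interval 47.1 to 53.1) and 47.8% in the library labelled KO (43.5 to 52.2). Fisher's exact test on the reads gave p = 0.417 for the difference between these libraries, with an odds ratio of 1.09, and it compares the libraries rather than the genotypes. Of 138 genes with at least 100 gene-specific reads of 24 to 33 nt, 28 (20.3%) had 30 to 70% of them on the sense strand.

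Per 1000000 miRNA reads, Noct had 412 reads in WT and 198 in the library labelled KO, a KO/WT ratio of 0.481 (95% Clopper-Pearson interval 0.432 to 0.536). The ratio was 0.459 for sense RNAs (0.393 to 0.536) and 0.503 for antisense RNAs (0.432 to 0.584), so both strands were lower and their intervals overlapped. Lower values were the rule among loci: 80 of the 138 genes (58%) had a ratio of 0.5 or less, and 0 had a ratio of 2 or more (0%). The median over these genes was 0.472 (quartiles 0.333 and 0.623), and 53.6% of them lay below Noct. They were not selected for first-position U or any other piRNA trait. Over the 28 genes with 30 to 70% of reads on the sense strand, Noct among them, the median was 0.435. All gene-specific reads of this length together had a ratio of 0.561. Fragments of structural RNAs of this length also were fewer, with a ratio of 0.874, and dividing by them in place of miRNA reads gave 0.551 for Noct (0.494 to 0.613).

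**Figure D1:**
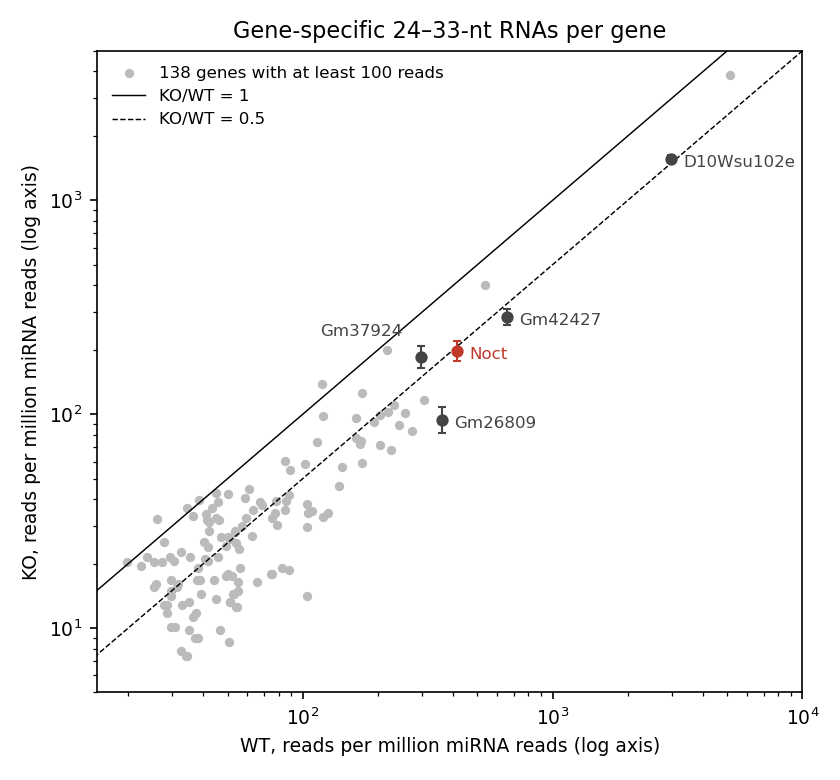
Gene-specific 24-33-nt reads per 1000000 miRNA reads in WT (x axis) and in the library labelled KO (y axis), both on log axes, for the 138 genes with at least 100 reads; the 5 richest loci with U at 50% or more of first positions are named and carry the 95% counting interval of their ratio, and other genes are grey. Noct lies at 412 and 198, next to the dashed line that marks a ratio of 0.5, within the band formed by the other genes.

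A check of the labels with Hsp90aa1, the gene of HSP90α, could not decide them. Its sense fragments numbered 2 in WT and 10 in the library labelled KO, a ratio of 4.93 (1.05 to 46.2), and those of Hsp90ab1, the gene of the beta form, 32 and 36. Fragments this few do not measure an mRNA, and the structure of the mutant allele is not given in the sources used here. Germ cell miRNAs of the miR-290 cluster, of which 7 of 9 hairpins were detected, summed to 2024 and 2661 reads, a ratio of 1.30 (1.22 to 1.37). Marker lists of the other cell types had ratios of 1.06 (support cells), 1.02 (mesenchymal), 1.003 (endothelial) and 0.869 (blood). The part of cell composition in the Noct ratio was not tested.

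The 5′ ends of Noct RNAs were concentrated at few positions, more so on the antisense strand. Sense RNAs began at 147 positions of Noct-202 in WT and 87 in the library labelled KO, and antisense RNAs at 100 and 60. The 5 most used ends held 29.3% and 31.3% of sense reads, against 50.8% and 51.1% of antisense reads. Of 303 ends on either strand, 91 were seen in both libraries. By sequence, 116 were shared, which made up 61.2% of Noct reads in WT and 71.1% in the library labelled KO, while 358 of the 553 were read once in all. A sequence read once cannot be seen in both libraries. The same counts for other loci are not given here, so these describe Noct only.

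On the antisense strand the end at 874 had 109 WT reads and 56 labelled KO, more than any other end of either strand. The next antisense ends, at 579, 574, 581 and 512, had 44 and 30, 42 and 19, 36 and 18, and 32 and 11 reads. Sense RNAs began most often at 787, with 46 and 23 reads, and at 865, with 40 and 16. These were followed by 913 with 28 and 8 reads, 546 with 18 and 13, and 1144 with 18 and 12. Each of these 10 ends had fewer reads in the library labelled KO, as did the locus as a whole. The interval of the KO/WT ratio included 1 at antisense 579 (0.408 to 1.09), sense 546 (0.320 to 1.54) and sense 1144 (0.289 to 1.44). The same count for other loci is not given here.

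The most read single ends were mostly lower too. They supply a large part of the reads of the locus, so they are no separate check of its ratio, and ends of other loci were not compared. Of 16 ends with at least 20 reads in all, 15 had a KO/WT ratio below 1, and for 9 the interval lay wholly below 1 and for 0 wholly above. Their ratios ran from 0.246 (0.0599 to 0.763) at antisense 558 to 1.07 (0.434 to 2.69) at antisense 555, with 16 and 4 reads at the former and 11 and 12 at the latter. A sense end just under that minimum, at 510, went the other way with 4 and 12 reads, a ratio of 2.96 whose interval (0.896 to 12.6) included 1; it was picked after its values were seen. The windows from 501 to 600 and from 801 to 900 held the most reads, with 370 and 197 in the first, of which 269 and 136 were antisense, and 194 and 84 in the second.

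**Figure D2:**
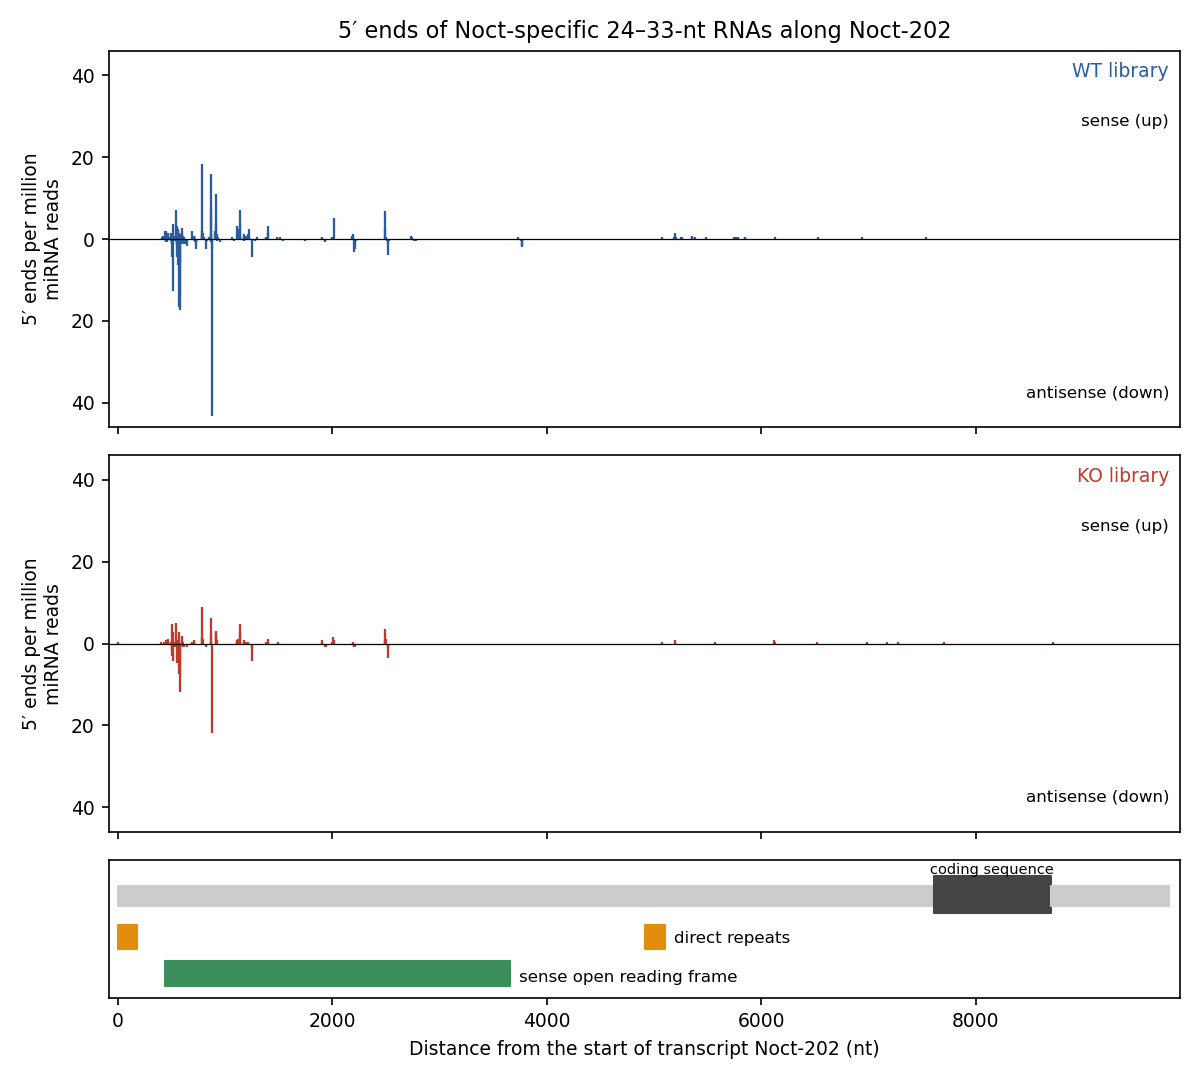
5′ ends of Noct-specific 24-33-nt RNAs per 1000000 miRNA reads (y axis, sense upward and antisense downward) by distance in nt from the start of Noct-202 (x axis), for WT (top, blue) and the library labelled KO (middle, red), above the coding sequence, direct repeats and sense open reading frame. The ends crowd between 400 and 1300 nt on both strands, the antisense end at 874 is the highest in both libraries, and almost none lie near the coding sequence.

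Most RNAs of the segment could not be assigned to Noct alone. A further 6620 sequences of 24 to 33 nt matched Noct and at least 1 other gene, with 24728 reads in WT and 12537 in the library labelled KO, so that the specific ones made up 3.99% of all reads matching Noct. These shared RNAs matched 1347 other genes, a median of 7 per read, and 62.5% of their reads also matched Gm42860, 55.0% Slc38a6, 34.6% Gm48161, 34.1% Gm29084 and 32.9% D10Wsu102e. Their KO/WT ratio was 0.499 (0.489 to 0.510), against 0.481 for the specific RNAs. The shared set was more often sense, at 59.9% in WT and 61.9% in the library labelled KO. Specific here means specific among annotated transcripts, since other genomic copies were not analysed here.

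Within the segment, reads specific to Noct lay mostly where its similarity to other transcripts was lower. Identity here is that of the whole alignment covering a window, at least 200 nt long, and the window's own identity was not measured. In 7 windows of 100 nt from 401 to 1100, the best alignment to a transcript of another gene had 88.2 to 90.9% identity. These 7 windows held 792 WT reads and 367 labelled KO that were specific to Noct, 41.7% of the matching reads there. In the other 44 windows of the segment the best identity was 97.3 to 100% and the specific reads numbered 220 and 126, or 0.972%. The count varied within the 7 windows, from 370 WT reads at 501 to 600 to 2 at 1001 to 1100. The window from 1101 to 1200 held 66 and 40 specific reads, against 19 and 16 shared ones. Its value of 97.3% comes from an alignment that runs from 1013 to 5019. Past the segment, where most windows had no alignment to another gene, specific reads were few. The rule that chose the reads favours windows of low identity, so this contrast is a description. The KO/WT ratio was 0.456 (0.402 to 0.517) for specific reads of the 7 windows and 0.564 (0.450 to 0.705) for those of the other windows.

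**Figure D3:**
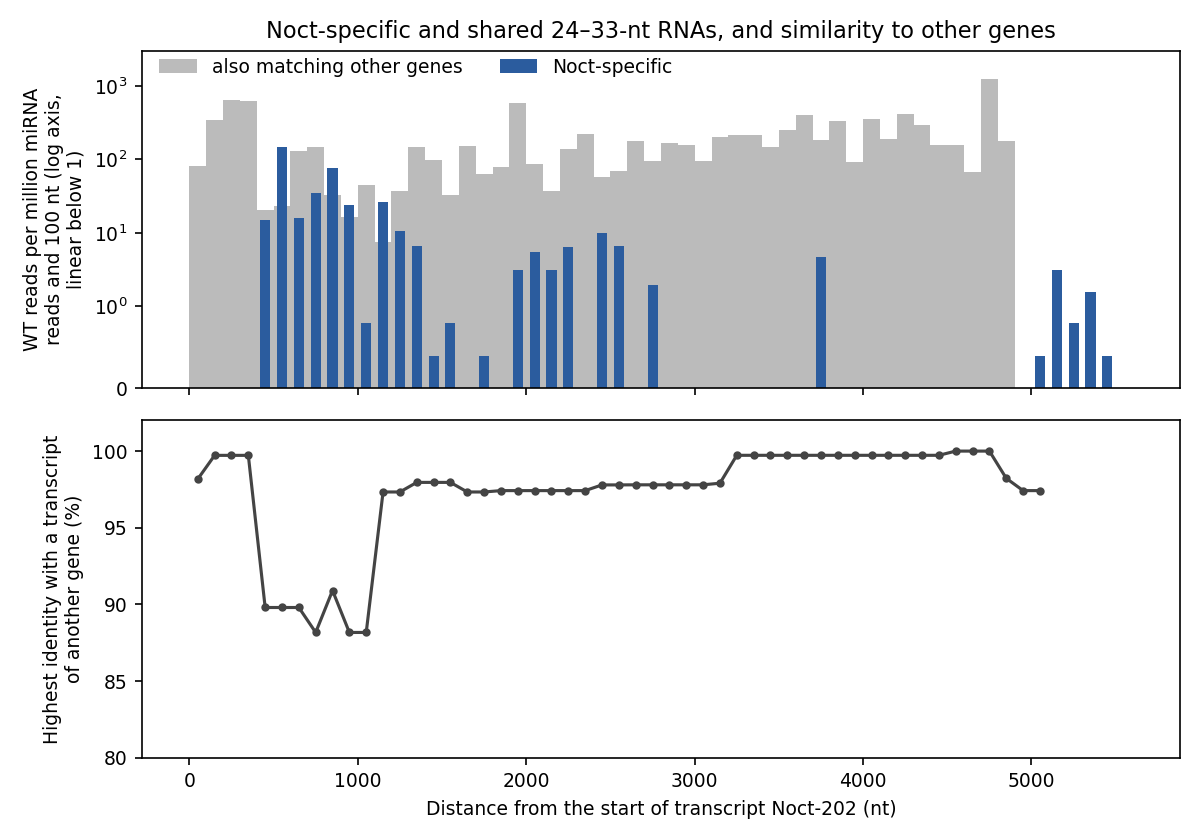
Top, WT reads of 24 to 33 nt per 1000000 miRNA reads in windows of 100 nt along the first part of Noct-202 (log axis, linear below 1), specific to Noct (blue) or also matching other genes (grey). Bottom, highest identity in percent among alignments to a transcript of another gene that cover the window, taken over the whole alignment. The highest blue bars, with 370 and 194 reads, are those of the windows from 501 to 600 and from 801 to 900, where the identity is below 91%, and lower ones reach past 2500 nt, while grey reads cover the segment up to its right repeat, whose reads were placed on the identical left copy.

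The strands differed in length. Sense RNAs were most often 27 nt, with 124 WT reads and 54 labelled KO, and antisense RNAs 29 nt, with 136 and 58. The mean was 27.7 nt for sense and 28.6 nt for antisense in WT, and 27.8 and 28.4 nt in the library labelled KO. In fetal germ cells RNAs bound by MILI are shorter than those bound by MIWI2, and classes of 24-27 and 28-32 nt were compared for that reason; no binding was measured here. RNAs of 28 to 32 nt made up 48.5% of sense reads in WT (44.3 to 52.9) and 77.1% of antisense reads (73.3 to 80.5), and 52.1% and 69.6% in the library labelled KO. A mean antisense length at least 1 nt above the sense mean was found for 1 of the 28 genes with both strands (3.57%); with a difference of 28.5 against 27.7 nt over both libraries, Noct was not that gene.

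**Figure D4:**
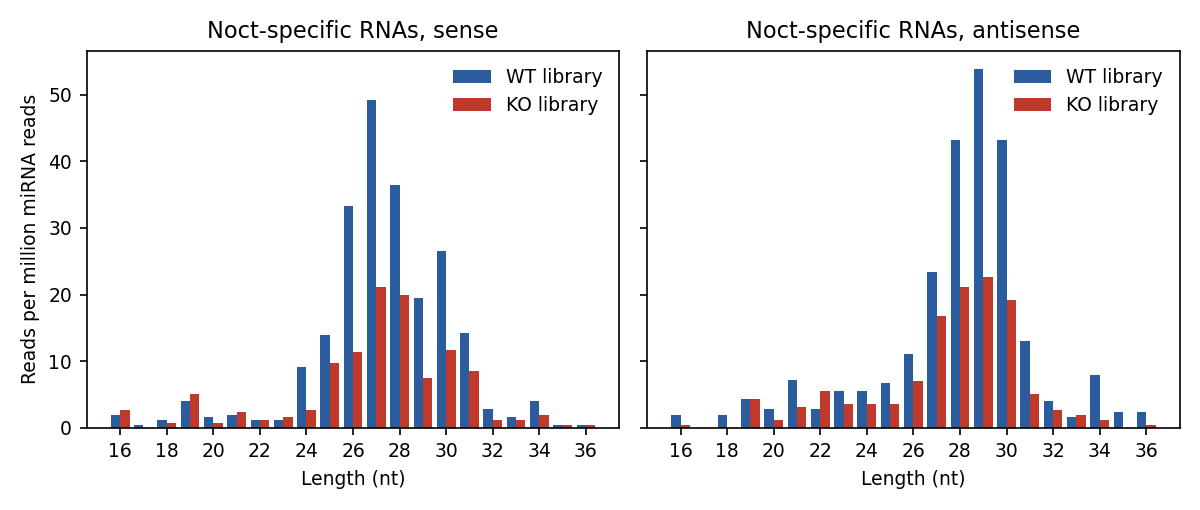
Noct-specific reads per 1000000 miRNA reads (y axis) by length in nt (x axis), on the sense strand (left) and the antisense strand (right), in WT (blue) and the library labelled KO (red). Sense RNAs peak at 27 nt and antisense RNAs at 29 nt in both libraries, with red bars below blue ones at every length from 24 to 32 nt.

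Both length classes of Noct were lower in the library labelled KO. The 24-27-nt RNAs numbered 384 and 194, a ratio of 0.498 (0.417 to 0.593), and the 28-32-nt RNAs 648 and 306, a ratio of 0.465 (0.405 to 0.534). The longer class had 0.935 times the ratio of the shorter one, and Fisher's exact test on the reads gave p = 0.574. For antisense RNAs the ratios were 0.659 and 0.449 and their quotient 0.681 (Fisher's exact p = 0.0288, and 0.0864 adjusted over the 3 tests), so the difference did not pass the correction. For sense RNAs the quotient was 1.15 (p = 0.390 and 0.574 adjusted, Fisher's exact test). In the same classes of 24-27 and 28-32 nt, all gene-specific reads had ratios of 0.614 and 0.510. The RNAs shared by Noct and other genes had 0.510 and 0.493, and structural RNA fragments 0.975 and 0.811.

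Reads outside the piRNA length were compared with those of the whole libraries. At 16 to 23 nt Noct had 101 WT reads and 83 labelled KO, a ratio of 0.809 (0.598 to 1.09). All gene-specific reads of this length had 1.07, and the RNAs shared by Noct and other genes 0.732. Noct sense reads numbered 34 and 37 (1.07, 0.655 to 1.76) and antisense reads 67 and 46 (0.676, 0.454 to 0.999). At 34 to 36 nt Noct had 44 and 11, a ratio of 0.246 (0.115 to 0.485), where all gene-specific reads had 0.393 and structural fragments 0.475. The antisense reads among them, 32 and 4, had a ratio of 0.123 (0.0316 to 0.347), with an interval below both of these values. That interval included the ratio of the shared RNAs of both strands at this length, 0.271 (0.231 to 0.316). Noct sense reads, 12 and 7, had a ratio of 0.575 (0.192 to 1.58). At 37 to 48 nt, beyond the lengths of the rule, 26 and 2 reads gave 0.0758 (0.00872 to 0.303), against 0.165 and 0.157, and 0.123 for the shared RNAs. Fragments over 33 nt were thus scarcer in the library labelled KO in each of these classes, and the part of this in the Noct ratios was not tested. Of the WT reads of 34 to 48 nt, 17 of 23 sense and 35 of 47 antisense began at a 5′ end used by a 24-33-nt RNA.

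First-position U, which helped choose the locus, was found in 82.3% of sense reads in WT and 84.8% in the library labelled KO, and in 68.8% and 64.2% of antisense reads. Position 10 was not itself used in the choice, but it is tied to first-position U. In exactly matching RNAs the tenth base of a read with a 10-nt partner is the complement of the partner's first base. Its values are therefore a description too. Position 10 was A in 71.7% of antisense reads in WT (67.7 to 75.4) and 77.7% in the library labelled KO (72.4 to 82.3). On the sense strand it was A in 35.3% (31.3 to 39.5) and 39.1% (33.2 to 45.4), so the intervals of the strands were apart in both libraries. Structural RNA fragments had A at this place in 24.7% and 23.4% of reads, and all gene-specific reads in 32.6% and 29.9%. Of the 28 genes with both strands, 4 (14.3%) had A at position 10 at least 20 percentage points higher on the antisense strand, and Noct was among them with 73.7% against 36.5% over both libraries. By 5′ end, 10 of the 10 most used sense ends began with U and 4 had A at position 10, against 7 and 9 of the 10 most used antisense ends.

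Sense and antisense 5′ ends overlapped by 10 nt more often than by any other length from 1 to 30 nt. Weighting each pair of ends by the product of their reads, 10 nt took 29.7% of the weight in WT and 33.2% in the library labelled KO, against a mean of 2.42% and 2.30% for each other overlap and 14.0% and 9.33% for the second, at 7 nt. Among 80 genes with any opposite ends within this range, 21 (26.2%) had 10 nt as the most frequent overlap in WT. The shared RNAs had 27.8% and 29.1% at 10 nt. The difference in this share between the libraries was not tested, and with lengths of 16 to 36 nt its order turned for the Noct-specific RNAs, at 29.3% in WT and 28.4% in the library labelled KO.

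**Figure D5:**
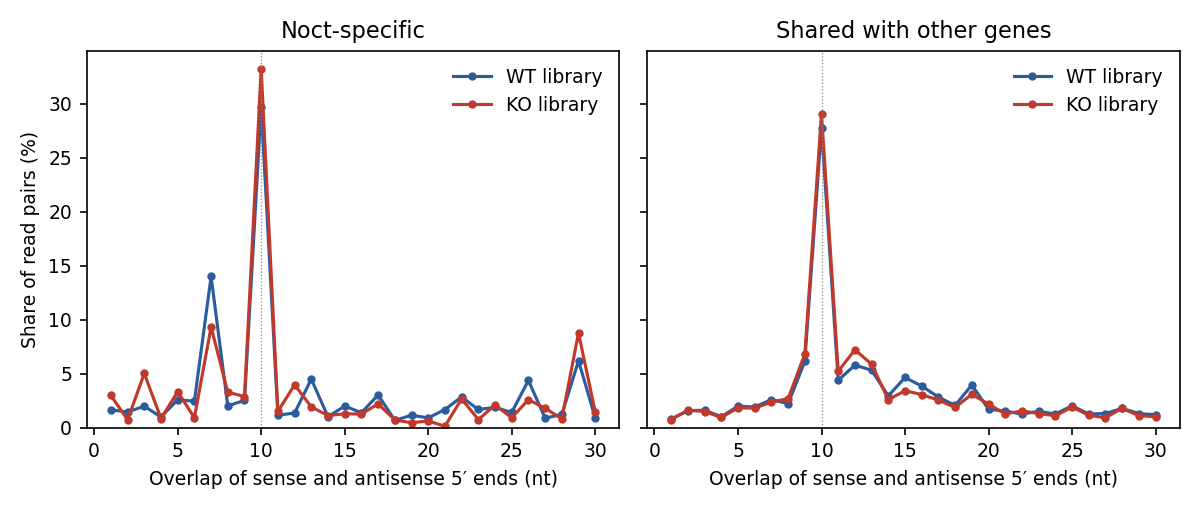
Share in percent of the weight of sense and antisense read pairs (y axis) by the overlap of their 5′ ends in nt (x axis), for Noct-specific RNAs (left) and RNAs shared with other genes (right), in WT (blue) and the library labelled KO (red). Both libraries and both sets peak at 10 nt, at 27.8 to 33.2%, and the specific set has smaller peaks at 7 and 29 nt.

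This peak rested largely on 1 pair, sense 865 with antisense 874, the ends of sense 2 and antisense 1 above. With 40 and 109 WT reads it made up 80.9% of the 10-nt weight in WT, and with 16 and 56 reads 66.2% of that in the library labelled KO. Leaving out the most read end of each strand, 787 and 874, lowered the 10-nt share to 9.50% in WT, where 29 nt then came first with 10.4%, and to 16.4% in the library labelled KO, where 10 nt stayed first. Counting each pair of ends once, 28 of 539 pairs in WT (5.19%) and 16 of 190 in the library labelled KO (8.42%) overlapped by 10 nt. Other such pairs joined 565 with 574 (6 and 42 WT reads), 546 with 555 (18 and 11) and 570 with 579 (4 and 44).

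Reads with a partner at 10 nt were more frequent on the antisense strand. They made up 56.9% of antisense reads in WT (52.7 to 61.1) and 62.1% in the library labelled KO (56.1 to 67.8), and 30.4% (26.6 to 34.5) and 22.2% (17.5 to 27.9) of sense reads. At the neighbouring overlap of 9 nt the shares were 45.8% and 38.3% for antisense and 17.7% and 9.47% for sense. A read was counted if at least 1 opposite read lay at that overlap, so these shares depend on the number of reads. At 9 nt, for example, the 109 antisense WT reads at 874 counted through 2 sense reads at 866. The library labelled KO had fewer Noct reads, so the shares of the libraries are not directly comparable. Sense reads with a 10-nt partner had A at position 10 in 65.2% of cases in WT and 63.0% in the library labelled KO, and those without in 22.4% and 32.3%. Among antisense reads the values were 80.3% and 86.0% with a partner and 60.1% and 64.0% without. Because matching was exact, A at position 10 of a read with a partner means that the partner begins with U. First-position U helped choose the locus, so the contrast with reads without a partner is no separate evidence of ping-pong.

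A further trace of piRNA making, in which one RNA begins just after another ends on the same strand, gave mixed values. Among distances of 1 to 30 nt from a 3′ end to the next 5′ end, a distance of 1 took 2.81% of the weight for sense RNAs in WT and 2.77% in the library labelled KO, and 5.47% and 10.4% for antisense RNAs. It was the most frequent distance only for antisense RNAs labelled KO. The base after the 3′ end was U for 26.4% of sense reads in WT (22.8 to 30.4) and 25.9% in the library labelled KO (20.8 to 31.8), where the segment has 21.5% on that strand. On the antisense strand it was U for 36.9% (32.8 to 41.1) and 42.4% (36.6 to 48.5), against 28.6% in the segment. Both antisense intervals, and that of sense reads in WT, lay above the share of the segment. That share is taken over the whole segment, while most reads lay in a part of it. The role of local base composition was not tested.

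RNAs of 19 nt, a length known for by-products of piRNA maturation, numbered 21 in WT and 24 in the library labelled KO, a ratio of 1.13 (0.600 to 2.13). Their neighbours were fewer in the library labelled KO, with 8 and 2 reads at 18 nt and 11 and 5 at 20 nt. Of the 10 sense WT reads of 19 nt, 3 ended just before the start of a longer RNA of the same strand and 2 of these began at the 3′ end of an opposite 29-nt RNA; of the 13 sense reads labelled KO, 4 and 2 did so. Of the 11 antisense WT reads, 2 ended just before a longer RNA and 1 of these also began at such a 3′ end, and of the 11 antisense reads labelled KO, which were 3 distinct sequences, 1 and 0 did. At 16 nt there were 10 and 8 reads. No difference between the libraries was detectable at this depth.

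Among the loci with the most gene-specific reads and U at 50% or more of first positions, Noct was the third by reads. D10Wsu102e had 7524 and 4007 reads, a ratio of 0.525, with 83.5% sense over both libraries, and Gm42427 had 1656 and 731, a ratio of 0.435, with 68.4% sense. Gm37924, with 747 and 473 reads, had 0.984% sense and a ratio of 0.624 (0.555 to 0.701), and Gm26809, with 906 and 241, had 16.5% sense and a ratio of 0.262 (0.226 to 0.302). The interval of Noct overlapped neither of the last pair. Its sense share of 49.4% was the most even of the 5.

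The loci most like Noct in the 40 shares of reads by library, strand and length were Eci2 (Pearson r = 0.810), which encodes an enzyme of fatty acid oxidation, and the noncoding genes AC160336.1 (r = 0.806) and Gm48362 (r = 0.795). The shares of a locus come from the same libraries, and r describes likeness over these values only. Eci2 had 261 and 76 reads and a ratio of 0.287 (0.219 to 0.372), AC160336.1 351 and 118 reads and 0.331 (0.266 to 0.409), and Gm48362 136 and 64 reads and 0.464 (0.339 to 0.628). All 3 also had 10 nt as the most frequent overlap in WT, with 8.96%, 15.6% and 24.4% of the weight. None of them did in the library labelled KO. There 10 nt took 16.7%, 8.70% and 13.04%, and the most frequent overlaps were 20, 18 and 15 nt. These values rest on few reads, the 76, 118 and 64 of that library. Noct kept 10 nt there with 508 reads, and so did the loci compared above, D10Wsu102e, Gm42427, Gm37924 and Gm26809. Keeping 10 nt was thus not particular to Noct.

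Other genes of the nuclease family and of the neighbourhood had few such RNAs. Cnot6 and Cnot6l, catalytic subunits of the CCR4-NOT deadenylase, had 4 and 4 reads and 2 and 2 reads. Pde12, a mitochondrial poly(A) nuclease, had 2 and 0, Angel1 0 and 0, and Angel2 4 and 4. Of 14 annotated genes within 200 kb of Noct, the noncoding Gm38246 had the most, with 64 and 40 reads, of which 60 and 37 were antisense, at a ratio of 0.616 (0.404 to 0.928). Gm38357, which lies inside Noct at chr3:51231917-51234380, had 16 and 9. Elf2, the adjacent protein-coding gene, which encodes an ETS transcription factor, had 1 and 2 reads, and no other gene had more than 5 in all.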

How the data were processed

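Small RNA libraries of the WT and Hsp90α KO pools were sequenced as single-end reads. The authors clipped the adaptor and deposited, for each library, raw counts of distinct sequences of 11 to 48 nt, neither mapped nor normalized. The submitters' processing notes name mm9, but the tables hold no coordinates. Exact matches of sequences from 16 nt upward were sought on either strand of 141767 transcripts of GENCODE M21 (GRCm38), whose coordinates are given here. Sense matches within 2202 miRNA hairpins were counted as miRNA and, with structural RNAs, left out of gene-specific sets. Intervals of ratios are 95% Clopper-Pearson and those of shares 95% Wilson. Similarity to other genes was taken from BLAST 2.17.0 alignments of at least 200 nt. Computations ran in Python 3.11.15 with scipy 1.17.1 for intervals and tests, numba 0.67.0 for matching, pandas 2.3.3 and numpy 2.4.6 for tables and matplotlib 3.10.9 for plots, and the interval and overlap counts were tested on simulated data.

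The locus, gene lists and tests were chosen with earlier results of these data known. Besides Noct, the genes named are the other 4 of the 5 loci with the most gene-specific reads and U at 50% or more of first positions, the 3 most alike of the genes with at least 100 reads, the nuclease family, genes within 200 kb, and the Hsp90 genes. The 5 genes sharing the most reads with Noct were named, and windows split at 95% identity, after their values were seen. Alternatives changed the total used for normalization, the least number of reads, distinct sequences for reads, the length range, the mismatches, the shared sequences and the top 5′ ends. Genome copies and repeat annotation were not used here.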

Additional observations from a re-analysis of the deposited data

How the results depend on the processing

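No paired analysis was possible because each genotype has 1 library, and for the same reason no library could be left out. Over 125 alternatives to 17 results, 79 moved less than the counting error or kept their side of the threshold, 43 moved further and 3 turned direction. The KO/WT ratio of Noct stayed below 1 in all settings run. For both strands it was 0.544 by distinct sequences, 0.560 normalized to all reads (antisense 0.586) and 0.551 normalized to structural RNA fragments of 24 to 33 nt, the last chosen after seeing the data. Which total is nearer the truth was not tested. Ends with fewer than 3 reads are not resolved at this depth.

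With sequences of at least 2 reads, the sense share of the library labelled KO was 42.8%, first U was 91.0% (sense, WT), 92.1% (sense, KO) and 75.3% (antisense, WT), antisense A at position 10 was 78.3% (WT) and 85.6% (KO), and the 10-nt share 40.5% and 45.1%. By distinct sequences the sense share was 56.8% and 54.2%, first U 70.2% and 76.7% (sense) and 55.4% (antisense, WT), antisense A at position 10 54.3% and 64.2%, and the 10-nt share 9.02% and 13.8%, in WT and KO. At 16 to 36 nt sense first U in KO was 79.4%. With 1 mismatch added the sense share was 58.2% and 58.9% and its odds ratio turned to 0.971 (Fisher's exact p = 0.593), sense A at position 10 was 28.7% and 32.9%, and antisense first U 53.0% and 54.0%. With sequences of other genes added the sense share was 59.5% and 61.3% and its odds ratio turned to 0.928 (Fisher's exact p = 6.97e-04), first U was 78.8% and 78.6% (sense) and 48.9% and 45.5% (antisense), and sense A at position 10 29.5% and 31.7%. Without the most read 5′ end of each strand the WT sense share was 53.7%, antisense first U 60.5% and 54.5%, antisense A at position 10 64.1% and 71.8%, the 10-nt share 9.50% and 16.4%, and the length quotient turned to 1.04. The cause of these moves was not tested.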
